A study of Mus musculus with 25 samples.

Results

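The metallothioneins Mt1 and Mt2, their zinc-sensing regulator Mtf1 and 5 metal transporters (the exporters Slc30a1 and Slc30a10 and the importers Slc39a4, Slc39a5 and Slc39a14) were measured by RNA sequencing in mouse liver. These 8 genes were picked by symbol and matched to their Ensembl identifiers, out of 41388 genes counted, and all 8 passed a filter of a CPM (counts scaled to a fixed library total) above 1 in at least 2 libraries that kept 14065 genes. The 25 libraries came from male mice of strain C57B/6J aged 20 wk, and every mouse carried a LoxP/LoxP Sirt1 allele and received an AAV8 vector through the tail vein. The empty vector (EV) was the control for a vector encoding NAMPT, the rate-limiting enzyme of NAD salvage, driven by the hepatocyte-restricted thyroxine binding globulin promoter. The sample titles name NAMPT for this vector and were followed, whereas the labels' treatment text names SIRT1. Mice without Cre were called WT, and mice in which Albumin-cre deletes the Sirt1 segment in hepatocytes were called LKO. There were 3 chow WT EV mice and, on a Western diet (WD) fed for up to 12 wk, 6 WT EV, 6 WT NAMPT, 5 LKO EV and 5 LKO NAMPT mice.

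Metallothioneins are small, cysteine-rich proteins that bind zinc and copper and buffer the free metal in the cell. The zinc-finger factor MTF1 senses cytosolic zinc and drives metallothionein and Slc30a1 transcription through short metal response elements. The SLC30 family moves metal out of the cytosol and the SLC39 family moves it in. In liver, metallothionein is known to rise with zinc, glucocorticoids, interleukin-6 and fasting, while the manganese exporter SLC30A10 and the manganese, zinc and iron importer SLC39A14 sit on the hepatocyte surface.

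Mt1 and Mt2 lie next to each other on the plus strand of chromosome 8 (GRCm38, 94179089 to 94180325 for Mt1 and 94172618 to 94173567 for Mt2), 5521 bases apart and with 3 exon blocks each. Slc30a10 (185454848 to 185468762) and Slc30a1 (191906767 to 191913247) lie on the plus strand of chromosome 1 and Mtf1 (124802104 to 124849800) on that of chromosome 4. The importers are on the minus strand, Slc39a4 on chromosome 15 (76612385 to 76616852), Slc39a5 on chromosome 10 (128395934 to 128401224) and Slc39a14 on chromosome 14 (70303469 to 70351425). The windows from 250 bases before to 50 after the annotated start of Mt1, Mt2 and Slc30a10 (RefSeq, GRCm38.p6) are shown because Mt1 and Mt2 moved together and Slc30a10 moved against them in the values that follow. Capitals mark the core of the metal response element, searched as TGCACNC and TGCGCNC on both strands, where a stretch of capitals can hold overlapping matches.
Mt1 (chr8:94178839-94179138, plus strand): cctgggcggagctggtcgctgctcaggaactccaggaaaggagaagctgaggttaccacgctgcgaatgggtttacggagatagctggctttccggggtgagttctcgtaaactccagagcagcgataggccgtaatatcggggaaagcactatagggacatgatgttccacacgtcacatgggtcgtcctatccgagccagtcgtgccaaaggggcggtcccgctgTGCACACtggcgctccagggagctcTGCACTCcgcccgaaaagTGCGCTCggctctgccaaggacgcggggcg
Mt2 (chr8:94172368-94172667, plus strand): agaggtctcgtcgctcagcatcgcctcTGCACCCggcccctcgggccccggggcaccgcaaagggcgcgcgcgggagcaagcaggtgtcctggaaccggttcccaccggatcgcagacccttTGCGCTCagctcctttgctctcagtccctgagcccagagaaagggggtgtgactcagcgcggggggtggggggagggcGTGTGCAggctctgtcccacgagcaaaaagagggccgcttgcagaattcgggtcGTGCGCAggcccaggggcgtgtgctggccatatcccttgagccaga
Slc30a10 (chr1:185454598-185454897, plus strand): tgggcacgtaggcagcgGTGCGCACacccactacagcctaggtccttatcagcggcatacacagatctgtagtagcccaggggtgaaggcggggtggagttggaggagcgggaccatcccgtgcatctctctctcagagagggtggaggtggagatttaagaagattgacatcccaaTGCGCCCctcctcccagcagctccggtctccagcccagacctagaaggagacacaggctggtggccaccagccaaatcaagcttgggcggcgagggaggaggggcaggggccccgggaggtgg
The Mt1 window held 3 matches, the Mt2 window 4 and the Slc30a10 window 3, and the Slc30a10 matches at positions -233 and -232 from the start overlap on opposite strands. Slc30a1 had 2 matches and the upstream one of the Slc39a5 windows had 1, while the Mtf1 window had none. RefSeq windows were at hand for 6 of the 8 genes, the others being Slc39a4 and Slc39a14. Of 32851 such mouse windows, 25.7% held at least 1 match, 1.97% at least 3 and 0.517% at least 4.

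Sequencing depth was 20166175 to 32937326 counts assigned to genes per library. Values below are CPM scaled by the trimmed mean of M values (TMM), so they compare 1 gene between livers and not different genes. Sirt1 did not separate the genotypes on WD with the empty vector, at 8.86 ± 0.57 CPM in WT (SD, n = 6) and 8.57 ± 1.34 CPM in LKO (n = 5). With NAMPT it was 8.58 ± 0.617 CPM in WT (n = 6) and 9.82 ± 1.36 CPM in LKO (n = 5), a log2 difference, LKO minus WT, of 0.19 (SE 0.11, limma adjusted p = 0.237), and the groups are therefore called the libraries labelled LKO. A whole-gene count also includes reads from exons outside a deleted segment. Nampt reached 59.5 ± 10.6 CPM (n = 6) in WT NAMPT against 47.4 ± 6.46 (n = 6) in WT EV, a log2 difference of 0.34 (SE 0.16, limma adjusted p = 0.144). Sirt1, the gene that the treatment text gives for the vector, differed between WT NAMPT and WT EV by -0.11 on the log2 scale (SE 0.10, limma adjusted p = 0.504). Hepatocyte markers were high in every library, with a summed level of 5 genes between 49580 and 80210 CPM. Pancreatic acinar genes summed to 10.6 CPM in WT NAMPT replicate 1 and to at most 0.529 CPM in the other 24 libraries. In whole liver, fewer cells of a type and less RNA per cell cannot be told apart.

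Per length, the metallothioneins were the most abundant of the 8 transcripts by the median, but not in every liver. In chow replicates 1 and 2 Mt1 (13.55 and 14.01 RPKM) and Mt2 (3.72 and 4.32) lay below Slc39a4 (31.12 and 33.03). Mt2 was also below Slc39a4 in some WD livers, such as WT NAMPT replicate 6 (8.14 against 18.34 RPKM). The median over the 25 libraries was 85.9 RPKM for Mt1 and 53.7 RPKM for Mt2, followed by 27.6 RPKM for Slc39a4, 15.3 for Slc39a14, 8.51 for Slc30a1, 8.09 for Slc30a10, 3.11 for Mtf1 and 0.794 for Slc39a5. RPKM here divides by all annotated exon bases, which makes the long Slc39a14 and Mtf1 models (10550 and 8907 bases) read low. Slc39a5 rested on 15 to 76 reads per library, whereas Mt1 had 170 to 10015.

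Mt1 and Mt2 differed more between mice of the same group than nearly any other liver gene. The pooled within-group SD was 1.55 log2 units for Mt1 and 1.75 for Mt2, the 26th and 20th highest among 14065 genes, against 0.18 for Mtf1, 0.20 for Slc30a1 and Slc39a14, 0.35 for Slc39a4, 0.38 for Slc39a5 and 0.49 for Slc30a10. Mt1 ranged 47.8-fold over the 25 livers, from 7.32 to 350 CPM, and Mt2 ranged 106-fold, from 2.07 to 219 CPM. The MTF1 transcript itself stayed between 22.1 and 35.4 CPM in the same livers.

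**Figure D1:**
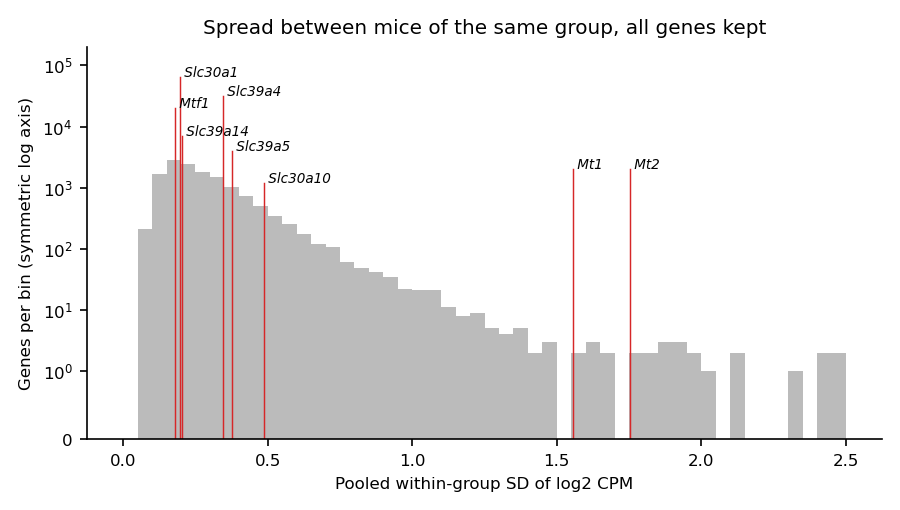
Histogram of the pooled within-group SD of log2 CPM (x axis) for 14065 genes, with genes per bin on a symmetric log y axis, where the last bin also holds higher values. Red lines mark the 8 genes, of which Mt1 (1.55) and Mt2 (1.75) lie in the sparse right tail and the other 6 lie between 0.18 and 0.49.

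In the chow WT EV livers Mt1 read 7.32, 7.57 and 348 CPM in replicates 1, 2 and 3. Mt2 read 2.07, 2.40 and 203 CPM in the same livers. Replicate 3 was thus 46.7-fold above the mean of the other chow livers for Mt1 and 90.6-fold for Mt2, while Mtf1 (0.889-fold) and Slc30a1 (0.842-fold) differed little. In that liver Slc30a10 (0.655-fold), Slc39a4 (0.62-fold) and Tsc22d3, a glucocorticoid-induced gene (0.456-fold), were lower. Zbtb16 (3.14-fold), Igfbp1 (2.76-fold), Socs3 (2.08-fold), Fkbp5 (1.67-fold) and Lcn2 (1.86-fold) were higher. Of 18 interleukin-6 and acute phase genes 14 were higher in replicate 3 than the mean of the other chow livers, against 49.9% of all genes tested. The median ratio was 1.37, against 0.999 for all genes tested. Of 5 endothelial and 5 lymphocyte markers 4 each were higher, and of 5 stellate markers 1. Of 11 glucocorticoid receptor targets 5 were higher and 6 lower (median ratio 0.963). The 8 markers of recruited macrophages and neutrophils summed to 88.8, 64.7 and 78.5 CPM in chow replicates 1, 2 and 3. Of the 7 with a ratio 4 were higher in replicate 3 (Cd68, Gpnmb, S100a8 and Itgam) and 3 lower (Lyz2, Trem2 and S100a9). With 1 liver these are descriptions without a test.

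The WD WT EV group was the tightest for both metallothioneins. Mt1 there ran from 13.6 to 55.4 CPM with a median of 24.7, and Mt2 from 6.90 to 34.1 CPM with a median of 14.6. All 6 livers lay above chow replicates 1 and 2 and below chow replicate 3. The direction of the diet difference followed from the measure used. The mean of Mt1 was lower on WD (29.6 ± 15.7 CPM, n = 6) than on chow (121 ± 196, n = 3), whereas the fit on log2 values with library weights gave a higher level on WD by 1.12 (SE 0.79, limma adjusted p = 0.327). For Mt2 the fitted difference was 1.85 (SE 1.14, limma adjusted p = 0.255), and the means were 16.7 ± 9.88 CPM (n = 6) on WD and 69.0 ± 116 (n = 3) on chow. The count models edgeR and DESeq2 turned the sign, to -2.03 for Mt1 and -2.05 for Mt2. Without chow replicate 3 the fitted differences were 1.85 and 2.72, and without chow replicate 1 they were -0.98 and -0.70.

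With NAMPT in WT mice on WD, Mt1 ran from 10.8 to 285 CPM with a median of 116, and Mt2 from 4.53 to 219 CPM with a median of 70.9. Replicates 1 to 4 all exceeded the highest WT EV liver for Mt1 (113 to 285 against 55.4 CPM), but replicate 5 (23.6 CPM) lay within the WT EV range and replicate 6 (10.8 CPM) below it. The fitted log2 differences were 1.69 for Mt1 (SE 0.66, limma adjusted p = 0.0849) and 1.80 for Mt2 (SE 0.72, limma adjusted p = 0.0913), and neither passed the threshold of 0.05. Both passed when replicate 5 was left out (2.11 and 2.30, limma adjusted p = 0.0273 and 0.0221) or replicate 6 (1.96 and 2.11, limma adjusted p = 0.0318 and 0.0299). With 2 surrogate variables in the fit the differences were -0.13 and -0.20.

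Markers of recruited macrophages and neutrophils moved with the same livers. Their summed level over 8 genes ran from 66.5 to 462 CPM in WT NAMPT (median 277) and from 60.0 to 132 CPM in WT EV (median 96.3), with Ly6g at 0 in every WT EV library. Of the 7 that were tested 5 rose in WT NAMPT (Lyz2, Cd68, Trem2, S100a9 and Itgam), against 7.67% of all genes tested. So did 2 of 5 Kupffer cell genes, Cd5l and Marco. Of 5 stellate cell markers Col1a1 (3.24-fold) and Des (1.57-fold) rose, and of 5 endothelial markers Pecam1 rose (1.28-fold) and Clec4g fell (0.759-fold), where 5.77% of all genes fell. Lyz2 was 239, 226, 191, 125, 92.0 and 49.1 CPM in WT NAMPT replicates 1 to 6, so the pair low in metallothionein was also lowest in Lyz2. The part of these cells in the metallothionein values was not tested.

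The libraries labelled LKO overlapped the WT libraries. In LKO EV Mt1 was 70.9, 27.8, 145, 46.4 and 38.7 CPM, and in LKO NAMPT it was 350, 64.5, 37.9, 97.5 and 50.9 CPM. Mt2 was 38.4, 15.6, 98.1, 21.4 and 13.7 CPM in LKO EV and 201, 37.2, 29.8, 67.5 and 33.3 CPM in LKO NAMPT. The LKO vector groups overlapped each other too, and LKO NAMPT replicate 1 stood far above the others. That liver was also the highest of its group in the macrophage markers Lyz2 (144 against 48.8 to 85.3 CPM) and Gpnmb (57.2 against 2.31 to 8.24 CPM), and the part of these cells in its metallothionein values was not tested. In the libraries labelled LKO the log2 difference of NAMPT from EV was 0.46 for Mt1 (SE 0.66, limma adjusted p = 0.863) and 0.70 for Mt2 (SE 0.68, limma adjusted p = 0.785), and neither passed the threshold. The difference between the NAMPT effects of the genotypes, LKO minus WT, was -1.23 for Mt1 (SE 0.93, limma adjusted p = 0.452) and -1.10 for Mt2 (SE 0.99, limma adjusted p = 0.534). Its sign turned with the replicate block (0.11 and 0.019) and with 2 surrogate variables (0.39 and 0.66). No neighbouring pair in the order of group means differed by more than the larger of its SDs, for either gene.

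**Figure D2:**
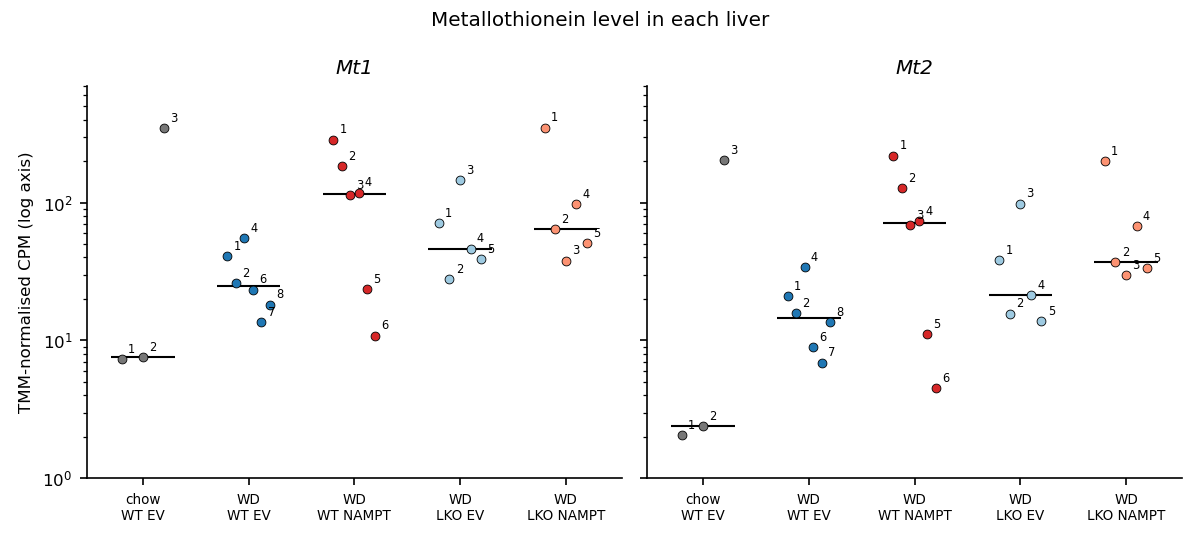
Mt1 (left) and Mt2 (right) in each of 25 livers by group, in TMM-normalised CPM on a log axis, with replicate numbers beside the points and the group median as a line. Chow replicate 3 and LKO NAMPT replicate 1 reach 348 and 350 CPM for Mt1, and WT NAMPT replicates 5 and 6 lie far below replicates 1 to 4.

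Although their level varied widely, Mt1 and Mt2 kept to each other. Pearson's r of log2 CPM was 0.99 over 25 libraries, both overall and for deviations from the group means, a description in which the points share library depth and scaling. The ratio of Mt1 to Mt2 per length stayed between 1.31 and 3.64 (median 1.79), and Mt1 was the higher in all 25 libraries. Both ratios above 3 came from the chow livers lowest in metallothionein.

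**Figure D3:**
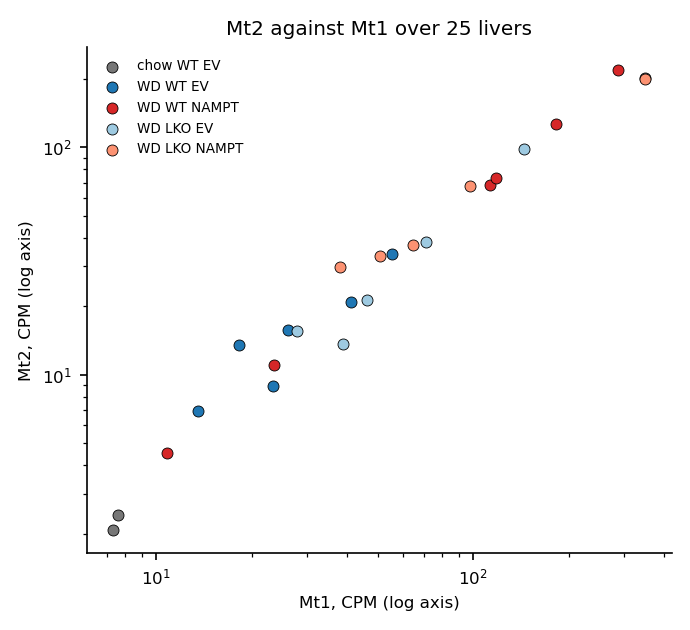
Mt2 against Mt1 in 25 livers, each in CPM on a log axis and coloured by group. The points follow 1 line from 7.32 and 2.07 CPM (chow replicate 1) to 350 and 201 CPM (LKO NAMPT replicate 1), which overlies chow replicate 3.

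Mtf1, the zinc sensor, did not pass the threshold in any comparison. Its group means lay between 24.9 ± 1.88 CPM (n = 3) on chow and 29.6 ± 1.47 (n = 5) in LKO EV, and the fitted differences ran from -0.056 to 0.11 with limma adjusted p of 0.585 to 0.986. Over the 25 livers the correlation of Mtf1 with Mt1 was -0.25, and -0.41 for deviations from the group means.

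Slc30a10, the manganese exporter, was the 1 gene of the 8 that changed with NAMPT in WT mice, against 13.4% of all genes tested and 5.77% that fell. It ran from 45.4 to 69.8 CPM (median 65.8) in WT EV and from 17.6 to 47.7 CPM (median 32.7) in WT NAMPT. The ranges overlapped only in the highest NAMPT livers, replicates 5 and 6. These were also the lowest in metallothionein and in the macrophage marker Lyz2 (92.0 and 49.1 CPM). The part of macrophages in the Slc30a10 values was not tested. Slc30a10 fell by 0.89 on the log2 scale (SE 0.24, limma adjusted p = 0.0189), to 0.538 of the WT EV level. The call was lost under 5 of 11 alternatives, edgeR's quasi-likelihood test and the fit without library weights among them, and on leaving out WT EV replicate 2 or 6 or WT NAMPT replicate 2 or 3 (limma adjusted p = 0.0545 to 0.0867). In LKO EV the values were 54.4, 74.4, 37.3, 47.2 and 42.3 CPM, and in LKO NAMPT 18.5, 34.5, 34.4, 51.4 and 73.7 CPM. These groups overlapped, with a log2 difference of -0.26 (SE 0.25, limma adjusted p = 0.777), and the interaction was 0.63 (SE 0.34, limma adjusted p = 0.287). The chow livers read 73.3, 71.6 and 47.4 CPM, and the difference on WD was -0.17 (SE 0.25, limma adjusted p = 0.66). Over the 25 livers log2 CPM of Slc30a10 ran against that of Mt1, with Pearson's r of -0.69 overall and -0.62 for deviations from the group means, the strongest opposed pair of the 8 genes. The exons of Slc30a10 share 533 bases with Gm2061 on the opposite strand, those of Mtf1 721 with 1110065P20Rik and those of Slc30a1 468 with 1700034H15Rik, and without a known strand setting such reads cannot be assigned with certainty.

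Slc30a1, the zinc exporter of the plasma membrane, moved little. It ran from 28.9 to 46.7 CPM (median 42.3) in WD WT EV, from 42.9 to 55.1 CPM (median 47.2) in WT NAMPT, and read 47.8, 53.2 and 42.6 CPM on chow. On WD it fell by 0.32 on the log2 scale relative to chow (SE 0.11, limma adjusted p = 0.0477), although the chow and WD ranges overlapped and the call was lost under 8 of 11 alternatives. It was also lost for 5 of the 9 libraries left out in turn, chow replicates 1 and 2 (limma adjusted p = 0.387 and 0.595) and WT EV replicates 2, 4 and 6 (limma adjusted p = 0.0598 to 0.0909). The difference with NAMPT in WT mice was 0.29 (SE 0.11, limma adjusted p = 0.0755), and it passed the threshold only when scaled by upper quartiles or by library size alone. Scaling by library size moved the median of all genes by 0.151 in this comparison, by -0.114 between the NAMPT genotypes and by -0.142 in the interaction. In the libraries labelled LKO Slc30a1 lay between 33.3 and 51.7 CPM with either vector.

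Among the importers, Slc39a5 had the largest difference with diet. It is known as a zinc transporter of pancreas, intestine and liver and was barely present on chow, at 0.703, 0.668 and 1.11 CPM. On WD it ran from 1.16 to 3.22 CPM (median 1.88) in WT EV. All 6 WD livers lay above the 3 chow livers, as was the case in this direction for 7.66% of all genes. The margin was narrow, from 1.11 CPM (28 reads, chow replicate 3) to 1.16 CPM (25 reads, WT EV replicate 8). On chow only replicate 3 exceeded 1 CPM, so the gene passed the filter only through the WD libraries, where it was higher. The fit gave a rise of Slc39a5 by 1.34 on the log2 scale (SE 0.34, limma adjusted p = 0.00671), 2.54-fold. The call was lost under 1 of 11 alternatives, the fit without library weights, and on leaving out chow replicate 1 or 2 (limma adjusted p = 0.182 and 0.212). On WD it ran from 1.15 to 2.05 CPM in WT NAMPT, 1.08 to 2.82 in LKO EV and 1.45 to 2.65 in LKO NAMPT, and no comparison among the WD groups passed the threshold. WT NAMPT replicate 1, the library with acinar transcripts, had the lowest Slc39a5 of its group, 1.15 CPM. Of 4 enterocyte markers Fabp2, a fatty acid binding protein gene, moved with Slc39a5, at 29.7 to 31.9 CPM on chow and 128 to 242 CPM in WD WT EV (6.05-fold, limma adjusted p = 2.97e-12). Vil1 was at most 0.623 CPM on chow and 0.183 CPM in WD WT EV, Sis at most 0 and 0.0458 CPM, and Alpi was at 0 in both groups.

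Slc39a14, which takes up manganese, zinc and iron and is induced by interleukin-6, was 111, 123 and 136 CPM on chow. In WD WT EV it ran from 123 to 194 CPM (median 159), which overlapped chow in replicates 1 and 4. It rose by 0.38 on the log2 scale (SE 0.11, limma adjusted p = 0.021), 1.30-fold, a call lost under 6 of 11 alternatives. It was also lost for 4 of the 9 libraries left out in turn, chow replicates 1 and 2 (limma adjusted p = 0.344 and 0.257) and WT EV replicates 2 and 6 (limma adjusted p = 0.0687 and 0.0519). The other WD groups had means of 165 ± 18.6 CPM (n = 6, WT NAMPT), 188 ± 37.1 (n = 5, LKO EV) and 172 ± 13.5 (n = 5, LKO NAMPT). No comparison among the WD groups passed the threshold.

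Slc39a4, the zinc importer mutated in acrodermatitis enteropathica, separated the genotypes under EV. It read 77.5, 84.5, 76.3, 72.3 and 77.1 CPM in LKO EV, against 41.8 to 60.0 CPM (median 50.9) in WT EV. The groups did not overlap, as was the case in this direction for 0.263% of all genes. The log2 difference was 0.64 (SE 0.14), 1.56-fold, with a limma adjusted p of 0.177 over all genes that missed the threshold. The same difference passed when only these groups were fitted (limma adjusted p = 0.0248), and over the other alternatives the adjusted p reached 1.0. In the NAMPT groups the genotypes overlapped, with 40.8 to 69.2 CPM (median 61.1) in WT and 69.6, 81.9, 27.7, 59.9 and 69.5 CPM in the libraries labelled LKO (log2 difference 0.14, SE 0.16, limma adjusted p = 0.573). The interaction was -0.50 (SE 0.21, limma adjusted p = 0.181). Relative to chow (69.2, 73.5 and 44.3 CPM), Slc39a4 fell on WD by 0.43 on the log2 scale (SE 0.15, limma adjusted p = 0.0438). The difference ranged from -0.55 to -0.17 over the 11 alternatives and from -0.51 to -0.14 with 1 library left out. The call was lost under 6 of 11 alternatives. It was also lost for 6 of the 9 libraries left out in turn, chow replicates 1 and 2 (limma adjusted p = 0.676 and 0.766) and WT EV replicates 2, 6, 7 and 8 (limma adjusted p = 0.0599 to 0.0812).

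**Figure D4:**
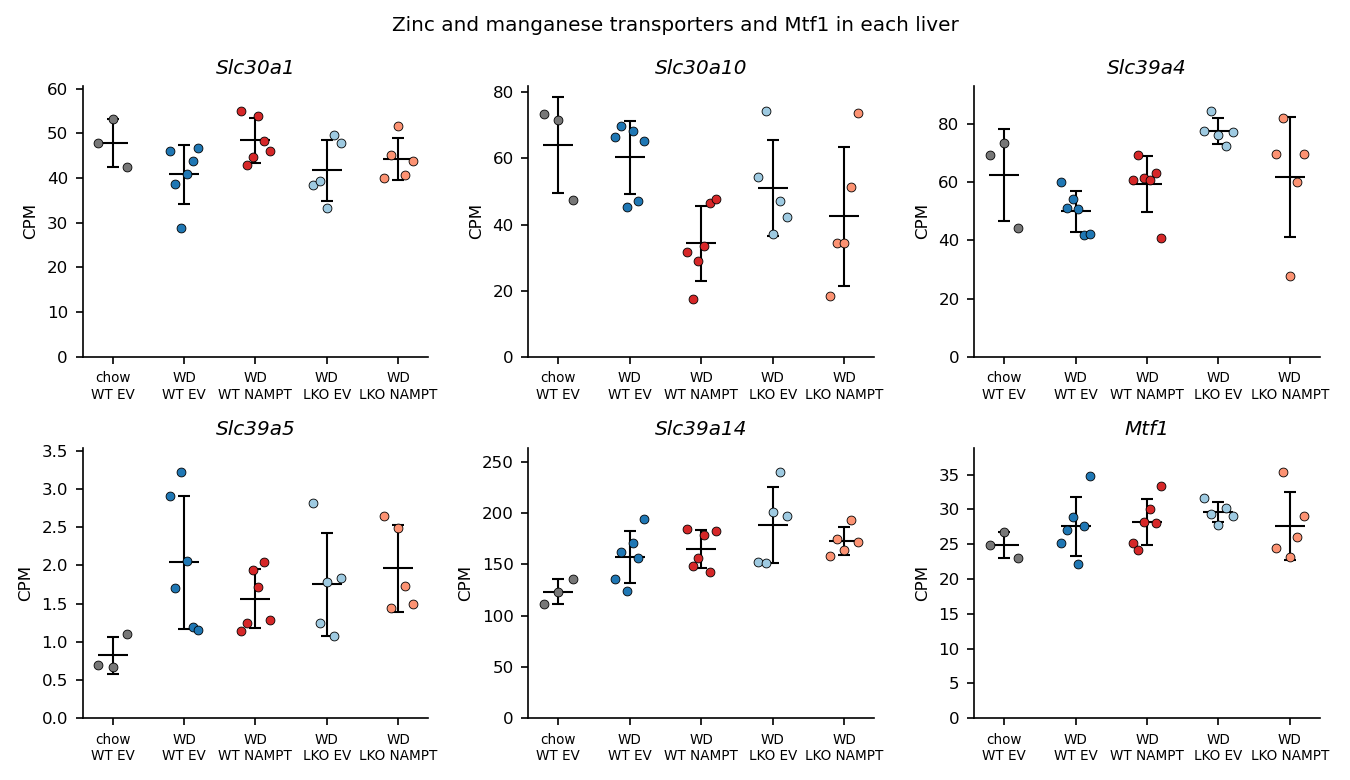
CPM of the 5 transporters and Mtf1 in each of 25 livers by group, on linear axes from 0, with bars for the group mean and SD. The 5 LKO EV livers lie above all 6 WT EV livers for Slc39a4, the WT NAMPT livers lie low for Slc30a10, and the 3 chow livers lie below all 6 WD WT EV livers for Slc39a5.

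Counted over the 8 genes, diet gave the most calls in the reported fit, whereas with edgeR's exact test or DESeq2 diet and NAMPT in WT mice gave 1 each, and without library weights 0 each. On WD against chow 2 were called higher (Slc39a5 and Slc39a14), against 10.1% of all genes tested, and 2 lower (Slc30a1 and Slc39a4), against 12.0%, with a median log2 difference of 0.23 for the 8 genes and -0.0047 for all genes. With NAMPT in WT mice 1 of 8 (12.5%) was called, near the 13.4% of all genes, with a median of 0.17 against 0.0041 for all genes. There 4 of 8 (Mt1, Mt2, Slc30a1 and Slc30a10) had an unadjusted p under 0.05, against 30.3%. With NAMPT in the libraries labelled LKO limma called 0 of 8, against 0.00711% of all genes, and 0 of 8 had an unadjusted p under 0.05, against 9.63%. Between the genotypes under NAMPT limma called 0 of 8, against 7.96% of all genes, and 0 of 8 had an unadjusted p under 0.05, against 28.6%. Between the genotypes under EV limma called 0 of 8, against 0.00711% of all genes, while 2 of 8 (Slc39a4 and Slc39a14) had an unadjusted p under 0.05, against 6.33%. The interaction likewise gave 0 of 8 against 0.00711% of all genes, and 1 of 8 (Slc39a4) had an unadjusted p under 0.05, against 21.2%. In those 4 comparisons edgeR's tests and DESeq2 also called 0 of 8, the exact test not being available for the interaction. In the order of group means, 2 of the 32 steps over the 8 genes exceeded the larger SD of the neighbours, those from chow to the next group for Slc39a5 and Slc39a14. The comparisons share groups: WD WT EV serves as the reference for NAMPT and for LKO and is the group set against chow.

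**Figure D5:**
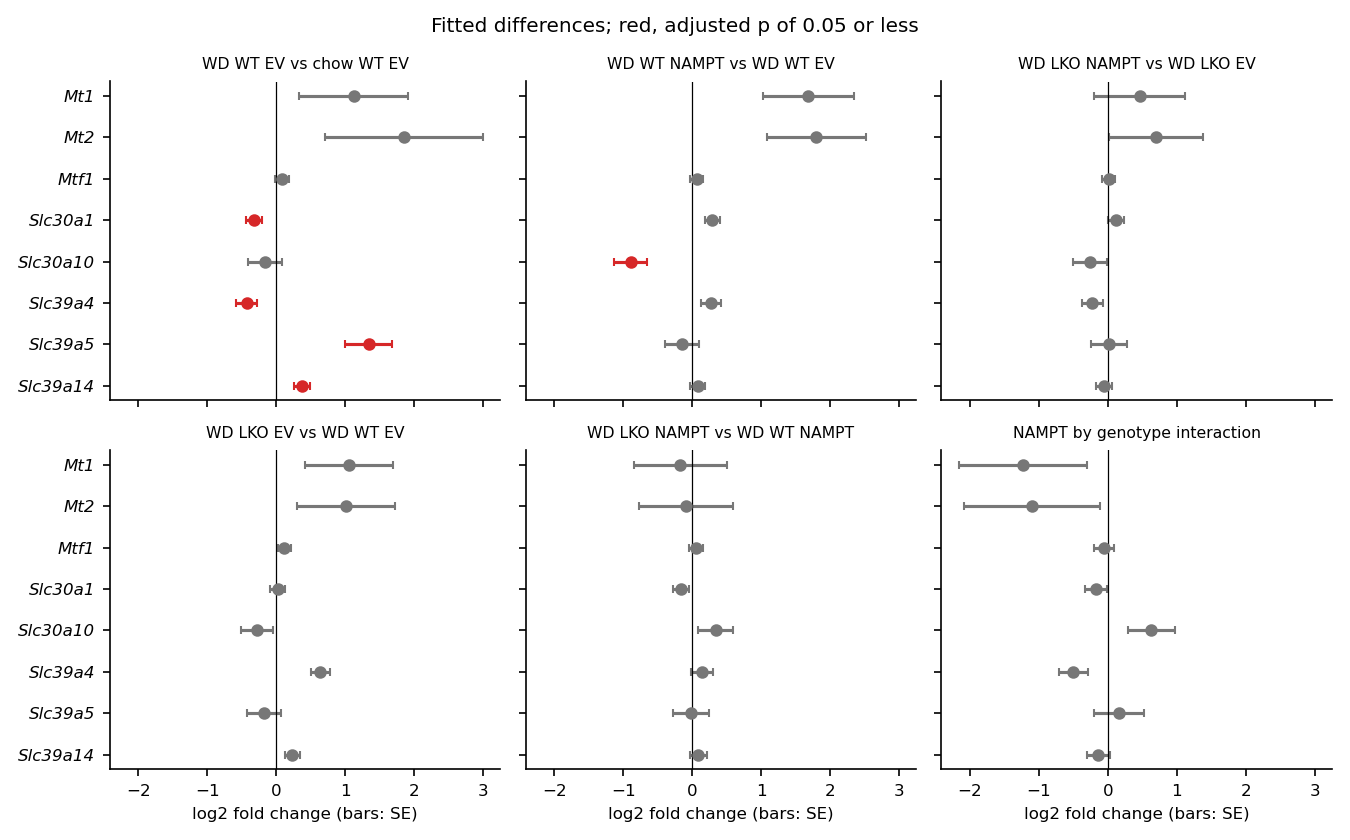
Fitted log2 fold change of the 8 genes in 6 comparisons, with bars for the SE and red points for an adjusted p of 0.05 or less. Slc30a1, Slc39a4, Slc39a5 and Slc39a14 are red for diet and Slc30a10 for NAMPT in WT mice, and the bars of Mt1 and Mt2 are the widest in each panel.

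Calls were also made in the rest of the metallothionein, SLC30 and SLC39 families. Of 29 family genes 23 were tested, and Mt4, Slc30a2, Slc30a3, Slc30a8, Slc39a2 and Slc39a12 stayed under the filter. On WD 8 of the 23 were called, 5 higher (against 10.1% of all genes tested) and 3 lower (against 12.0%), which adds the importers Slc39a1, Slc39a9, Slc39a11 and Slc39a13 to the 4 above. Slc39a9 was 60.6, 58.5 and 51.8 CPM on chow and 65.0 to 83.8 CPM (median 77.6) on WD, and it rose by 0.39 on the log2 scale (SE 0.08, limma adjusted p = 0.00133). Slc39a11 was 24.4, 24.9 and 26.9 CPM on chow and 31.4 to 34.5 CPM (median 32.7) on WD, and it rose by 0.40 (SE 0.08, limma adjusted p = 0.00171). Neither gene's groups overlapped, and both passed under all 11 alternatives. Slc39a9 also passed on leaving out each library in turn, while Slc39a11 was lost without chow replicate 1 or 2. Slc39a1 rose by 0.19 (limma adjusted p = 0.0443) and Slc39a13 fell by 0.31 (limma adjusted p = 0.0432), and these calls were lost under 10 and 8 of the 11 alternatives. With NAMPT in WT mice 2 of 23 (8.7%) were called, against 13.4% of all genes, and both were lower, against 5.77%. They were Slc30a10 and Slc39a8, an importer of manganese and zinc. Slc39a8 ran from 31.2 to 41.2 CPM (median 35.6) in WT EV and from 25.8 to 34.9 CPM (median 29.4) in WT NAMPT, and it fell by 0.32 on the log2 scale (SE 0.10, limma adjusted p = 0.0296), a call lost under 8 of 11 alternatives and for 4 of 12 libraries left out, WT EV replicates 2 and 6 and WT NAMPT replicates 2 and 3. In the libraries labelled LKO its difference with NAMPT was -0.010 (SE 0.10, limma adjusted p = 0.983).

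Other gene lists tied to metallothionein moved in part. Of 18 interleukin-6 and acute phase genes 6 rose with NAMPT in WT mice, against 7.67% of all genes, led by Saa3 (log2 difference 1.57), Saa1 (1.37) and Il1b (1.13), and none fell. Saa3 ran from 1.56 to 43.0 CPM in WT NAMPT and was lowest in replicates 5 (12.0 CPM) and 6 (1.56 CPM), the pair that was also lowest in Lyz2, and the part of macrophages and neutrophils in these genes was not tested. Saa3 and Il1b, 2 of the 18, were lower in the libraries labelled LKO than in WT under NAMPT (-1.86 and -1.22), against 3.78% of all genes. There all 7 tested macrophage and neutrophil markers were lower with an unadjusted p under 0.05, against 28.6% of all genes. Lyz2 and Itgam, 2 of these 7, and Marco, 1 of 5 Kupffer cell genes, were called lower. On WD 4 of the 18 rose, against 10.1% of all genes, led by Lcn2 (3.70), Saa2 (2.92) and Orm3 (2.69), and 3 fell, against 12.0%. Of 11 glucocorticoid receptor targets 0 passed with NAMPT in WT mice with limma, against 13.4% of all genes. There 3 had an unadjusted p under 0.05, against 30.3%, and all 3 were lower, while the median of the 11 was 0.19. With NAMPT in the libraries labelled LKO 5 of the 11 had an unadjusted p under 0.05, against 9.63% of all genes. All 5 were lower, with a median log2 difference of -0.51 for the 11. Between the genotypes under EV 3 of the 11 had such a p, against 6.33% (median 0.28). In the interaction it was 4 of the 11, against 21.2% (median -0.44). On WD Per1 (1.36) and Fkbp5 (1.19) rose, 2 of 11 against 10.1%, while the tyrosine aminotransferase gene Tat fell (-0.95), 1 of 11 against 12.0%. Tat was also lower in the libraries labelled LKO than in WT under NAMPT (-0.74), 1 of 11 against 3.78% of all genes. Of 11 copper handling genes 1 was called in each of 3 comparisons (9.09%), which is no more than the share of all genes with NAMPT in WT mice (13.4%) and near that between the genotypes under NAMPT (7.96%). Sco1, a cytochrome oxidase assembly factor, fell with NAMPT in WT mice (-0.34) and was higher in the libraries labelled LKO than in WT under NAMPT (0.41, against 4.18% of all genes), and the copper chaperone gene Atox1 rose on WD (0.61), where 10.1% of all genes rose. Of 10 oxidative stress genes Hmox1, heme oxygenase, rose (0.79) and Gclc, a glutathione synthesis gene, fell (-0.55) with NAMPT in WT mice, 1 of 10 in each direction against 7.67% and 5.77% of all genes. Gclc rose on WD (0.46), 1 of 10 against 10.1%. No gene of these 4 lists passed with NAMPT in the libraries labelled LKO, between the genotypes under EV or in the interaction, where 0.00711% of all genes passed in each.

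The genes most like each of the 8 were ranked by Pearson's r of log2 CPM over the 25 libraries, a description that carries any shared group or library effect. After Mt2, Mt1 was most like Flvcr2, a membrane transporter (r = 0.87), the endothelial genes Esm1 (0.86) and Angpt2 (0.86), and Hcar2, the receptor for niacin and ketone bodies (0.86). After Mt1, Mt2 was most like Hcar2 (0.88), Flvcr2 (0.87), the adhesion molecule Vcam1 (0.85) and the hydrolase Abhd2 (0.84). For deviations from the group means the values were 0.90 for Flvcr2 with Mt1 and 0.92 for Hcar2 with Mt2. Chow replicate 3 stood out for both, with Flvcr2 at 13.4 CPM against 2.44 and 3.74, and Hcar2 at 3.47 CPM against 0.248 and 0. Slc30a10 was most like Elovl3, a fatty acid elongase (0.88), Hsd3b7, a bile acid synthesis enzyme (0.86), and Selenoi (0.86). Slc39a5 was most like Arsb, a lysosomal sulfatase (0.88), Ctse, cathepsin E (0.88), and Zfp423 (0.88). Slc39a14 was most like Mtss1 (0.80) and Wdr45b (0.79), and Slc39a4 most like Smoc2 (0.77), Astn2 (0.72) and Taf1c (0.72). Slc30a1 was most like Nfx1 (0.76), Utp14a (0.73) and Atp8b1 (0.72), and Mtf1 most like Fgfr3 (0.74), Tpcn1 (0.72) and Ppp1r37 (0.71).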

How the data were processed

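Per the labels and methods, the authors sequenced liver poly-A RNA as single 50-base reads, aligned them to GRCm38 and counted reads per Ensembl gene. The submitters' processing notes name STAR 2.5.1a and featureCounts 1.4.6-p5, and whether counting used strand is not given in the sources used here. The deposited files hold raw counts, CPM and RPKM per gene, and CPM and RPKM were recomputed from the deposited counts with a largest relative deviation of 5.9e-14. Groups and the vector's gene followed the titles, since the treatment text names SIRT1 for the vector, and no batch labels were given.

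Counts were fitted with limma 3.58.1 (voom with sample quality weights, TMM scaling by edgeR 4.0.16, R 4.3.3) over all 25 libraries, with 1 mean per group and no covariates. The 4 rRNA genes and genes not above 1 CPM in 2 libraries were left out. Adjusted p-values (Benjamini-Hochberg, 14065 genes) of 0.05 or less were called. Sample weights ran from 0.336 (WT NAMPT replicate 6) to 2.5 (chow replicate 2), with 0.608 for chow replicate 3. The pseudocount for log2 CPM was 0.5. The script was tested on simulated data. The genes and lists were chosen with earlier results of these data known. Named genes were the 8, other zinc family genes called in any comparison, up to 3 called genes with the largest differences per other list and comparison, and the genes most like each, of which 1 is not reported here. The list genes named for chow replicate 3, and the cell type markers, were chosen after their values were seen. Lcn13 and Tf had no unique identifier. Promoter windows came from a RefSeq table (GRCm38.p6). Alternatives were edgeR, DESeq2 1.42.0, surrogate variables (sva 3.50.0), other scalings, filters and sample sets, and each library left out in turn.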

Additional observations from a re-analysis of the deposited data

Results flagged for a closer look

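In groups of 4 to 10 mice, a liver was picked out by its gap to the nearest other liver. The gap had to take up more of the group's range than Dixon's 95% limit. Chance exceeds that limit in about 1 of 20 groups of normally distributed values. The rule was applied to CPM, and whether the same livers stand apart on the log2 scale was not tested. Of 32 groups tested over the 8 genes, 3 had such a liver. Mt1 in WD LKO NAMPT replicate 1 was 350 CPM, with the next liver at 97.5 CPM (gap 0.809 of the range). Mt2 in the same liver was 201 CPM, with the next at 67.5 CPM (gap 0.78), and since both metallothioneins vary together these are not separate events. The same liver was the highest of its group in Lyz2, a macrophage marker (144 CPM, the others 48.8 to 85.3). Slc39a4 in WD WT NAMPT replicate 6 was 40.8 CPM, with the next at 60.6 CPM (gap 0.697). The chow group of 3 was too small for this test. None of the 8 genes passed the test of a difference between the NAMPT effects of the genotypes.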

How the results depend on the processing

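Of 48 log2 differences (8 genes in 6 comparisons), 29 kept their sign under every alternative and every left-out library. Depth limits Slc39a5, at 15 to 76 reads per library, and the chow arm has 3 mice, so leaving 1 out leaves 2. All reversed differences had missed the threshold in the reported fit, and the cause was not tested.

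With NAMPT in WT mice, 1 of the 8 was called in the reported fit, 0 with edgeR's quasi-likelihood test, no sample quality weights, no filter on low counts, the replicate block or 2 surrogate variables, 2 with upper-quartile or library size scaling, and 0 to 3 with 1 library left out. On WD against chow 4 were called, 1 with edgeR's quasi-likelihood or exact test, DESeq2, no filter or the replicate block, 0 with no weights, and 0 to 4 with 1 library left out (0 without chow replicate 1 or 2, and 1 without WT EV replicate 2 or 6). Between genotypes under EV 0 were called, and 1 when only the groups compared were fitted. Over all genes, NAMPT in WT mice called 1890 genes in the reported fit, 428 with the quasi-likelihood test, 1194 with DESeq2, 192 with no weights and 63 with 2 surrogate variables, and WD against chow called 3101, 1322, 1745, 1201 and 3261.

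Reversed with NAMPT in WT mice were Mt1 (-0.13) and Mt2 (-0.20) with 2 surrogate variables and Slc39a5 (0.039) with library size scaling. On WD against chow Mt1 and Mt2 were -2.03 and -2.05 with either edgeR test or DESeq2 and -0.37 and -0.18 with 2 surrogate variables, where Slc30a10 was 0.027, and Mt1 was -0.051 with no weights. With NAMPT in the libraries labelled LKO, Mtf1 was -0.10 with either edgeR test, -0.11 with DESeq2 or no weights, -0.018 with upper-quartile scaling, -0.053 with no filter, -0.0048 with only the groups compared and -0.036 with the replicate block, and Slc39a5 was -0.012 with upper-quartile scaling and -0.0053 with only the groups compared. Between genotypes under NAMPT, Mt1 and Mt2 were 0.19 and 0.32 with no weights, 0.48 and 0.47 with the replicate block and 1.19 and 1.42 with 2 surrogate variables, and Mt2 was 0.020 with no filter. Mtf1 there was -0.027 and -0.025 with edgeR's tests, -0.032 with DESeq2, -0.028 with no weights, -0.0022 with upper-quartile scaling, -0.062 with library size, -0.029 with the replicate block and -0.015 with 2 surrogate variables. Slc39a5 there was 0.32 with either edgeR test or DESeq2, 0.30 with no weights, 0.073 with no filter, 0.12 with the replicate block and 0.45 with 2 surrogate variables, Slc39a4 was -0.014 with no weights and Slc39a14 -0.012 with library size. In the interaction Mt1 and Mt2 were 0.11 and 0.019 with the replicate block and 0.39 and 0.66 with 2 surrogate variables.

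With 1 library left out, differences that changed sign ranged from -0.98 to 1.85 for Mt1, -0.70 to 2.72 for Mt2 and -0.27 to 0.070 for Slc30a10 on WD against chow (reversed without chow replicate 1 or 2). With NAMPT in the libraries labelled LKO they ranged from -0.16 to 0.074 for Mtf1, -0.13 to 0.18 for Slc39a5 and -0.16 to 0.016 for Slc39a14. Between genotypes under NAMPT they ranged from -0.61 to 0.12 for Mt1, -0.60 to 0.24 for Mt2, -0.11 to 0.12 for Mtf1, -0.032 to 0.23 for Slc39a4 and -0.11 to 0.14 for Slc39a5. Slc30a1 ranged from -0.055 to 0.13 between genotypes under EV, and Mtf1 from -0.22 to 0.010 in the interaction. Same-numbered livers of different groups correlated at -0.377 to 0.419 in their deviations from the group means, so the numbers were not taken to pair the mice.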
